A study of Mus musculus with 23 samples.

Results

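This report follows 10 marker genes of astrocytes, Gfap, Vim, Aqp4, S100b, Slc1a2, Slc1a3, Aldh1l1, Gja1, Sox9 and Apoe, through RNA libraries made from mouse hippocampal neuron cultures. The members were chosen by name, as genes in common use to mark astrocytes, with earlier results of these data known. All 10 were found among the 55487 gene IDs of each count table. Hippocampal cells of C57Bl/6 pups of postnatal day 1 were seeded on the soma side of microfluidic chambers, whose axons can grow through fine channels to a separate side. Magnetic nanoparticles (MNPs) were added to every culture at 5 µg/ml. Stretched cultures were held in a magnetic field gradient of 50 T/m between DIV 1 and DIV 6 (days in vitro), and control cultures had the same particles under a null gradient. RNA came either from the axonal compartment, labelled a pure axonal preparation, or from the soma side, labelled total cell culture.

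There were 6 libraries each of stretched axon, stretched soma and control soma, and 5 of control axon. All carried the particles and the same unmodified genotype, so no group shows the cells without particles. The soma side was not sorted, and it could hold any cell type of the dissociated tissue. The labels do not say whether libraries of a group came from separate dissections, so p-values measure the spread between these libraries, which may be technical in part.

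Astrocytes are the glial cells that take up glutamate and potassium around synapses, supply neurons with metabolites and lipids, and contact blood vessels. Dissociated hippocampal tissue of newborn pups carries glial progenitors and young astrocytes along with neurons, and these can divide in culture while neurons do not. The proteins behind the members fall into several jobs. Gfap and Vim build intermediate filaments, Slc1a2 (GLT-1) and Slc1a3 (GLAST) take up glutamate, Aqp4 is a water channel, Gja1 (connexin 43) forms gap junctions, Aldh1l1 is a folate enzyme, Apoe is a secreted lipid carrier, S100b is a calcium-binding protein, and Sox9 is a transcription factor of the glial lineage. None is limited to astrocytes: Vim is also made by progenitors, fibroblasts and endothelial cells, Apoe by microglia, and Sox9 and Slc1a3 by radial glia.

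In the GENCODE annotation of GRCm38, the build the submitters name as mm10, the filament genes are Gfap (ENSMUSG00000020932, chr11:102887336-102900912, minus strand) and Vim (ENSMUSG00000026728, chr2:13573927-13582826, plus strand). The transporter genes are Slc1a2 (ENSMUSG00000005089, chr2:102658659-102790784, plus strand) and Slc1a3 (ENSMUSG00000005360, chr15:8634124-8710764, minus strand). The channel genes are Aqp4 (ENSMUSG00000024411, chromosome 18) and Gja1 (ENSMUSG00000050953, chr10:56377330-56402513, plus strand). The other members are Apoe (ENSMUSG00000002985, chr7:19696109-19699188, minus strand), S100b (ENSMUSG00000033208, chr10:76253853-76261159, plus strand), Aldh1l1 (ENSMUSG00000030088, chr6:90486427-90600203, plus strand) and Sox9 (ENSMUSG00000000567, chr11:112782224-112787760, plus strand). Exons of Slc1a2 overlap an antisense gene, and exons of Aldh1l1 overlap 2 noncoding genes, so their counts are less certain. One of these, Gm45901, is on the same strand as Aldh1l1, and the others are antisense.

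Libraries held 16369153 to 43048953 counts. Soma libraries had a count for 22452 to 24575 genes and axonal libraries for 4263 to 10242, so the axonal libraries were far sparser at similar depth. Levels per library are given as counts per 1000000 counts of the library (CPM), and fold changes come from edgeR with its own scaling between libraries (TMM). A floor of 3 counts equals 0.0697 to 0.183 CPM, depending on the library, and covers counting error only. The 12 soma libraries stood apart in 2 sets by Eif2s3y, a Y-linked gene that is no member. It was at 24.7 to 28.7 CPM in control soma 1, 2 and 3 and stretched soma 1, 2 and 8, and at 5.39 to 13.2 CPM in numbers 4, 5 and 6 of both conditions. Each set held 3 libraries of each condition. The limit of 20 CPM between the sets was chosen after seeing the data, and the labels do not say what the sets are.

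In the somata every member had counts in all 12 libraries. Set per kilobase of the longest annotated transcript, which allows levels of different genes to be compared, Apoe and Gfap were far above the other 8. In control soma Apoe was at 3066 ± 1312 and Gfap at 2416 ± 1054 CPM per kilobase (SD, n = 6), and their ranges overlapped. Slc1a3 at 183 ± 46.9 and Vim at 170 ± 26.4 CPM per kilobase followed, again without a gap between them. Aqp4 (61.6 ± 31.2), Sox9 (57.9 ± 15.7), Gja1 (36.3 ± 18.7) and Aldh1l1 (30.0 ± 9.13 CPM per kilobase) came next, each overlapping its neighbour in this order. Slc1a2 at 13.3 ± 4.11 and S100b at 6.17 ± 2.59 CPM per kilobase were lowest. GLAST RNA (Slc1a3) stood above GLT-1 RNA (Slc1a2) with no overlap of their ranges.

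Stretched soma kept these tiers. Gfap (2268 ± 813) and Apoe (2090 ± 778 CPM per kilobase; SD, n = 6) exchanged places within overlapping ranges, and the order of the other 8 was the same as in control soma. With the merged length of all annotated exons in place of the longest transcript, several neighbours changed places, among them Vim and Slc1a3 in control soma. Gfap alone made up a median of 47.8% of the members' summed CPM in control soma and 53.0% in stretched soma. The 10 members together took 1.30% ± 0.523 of all counts in control soma and 1.13% ± 0.389 in stretched soma (SD, n = 6).

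**Figure D1:**
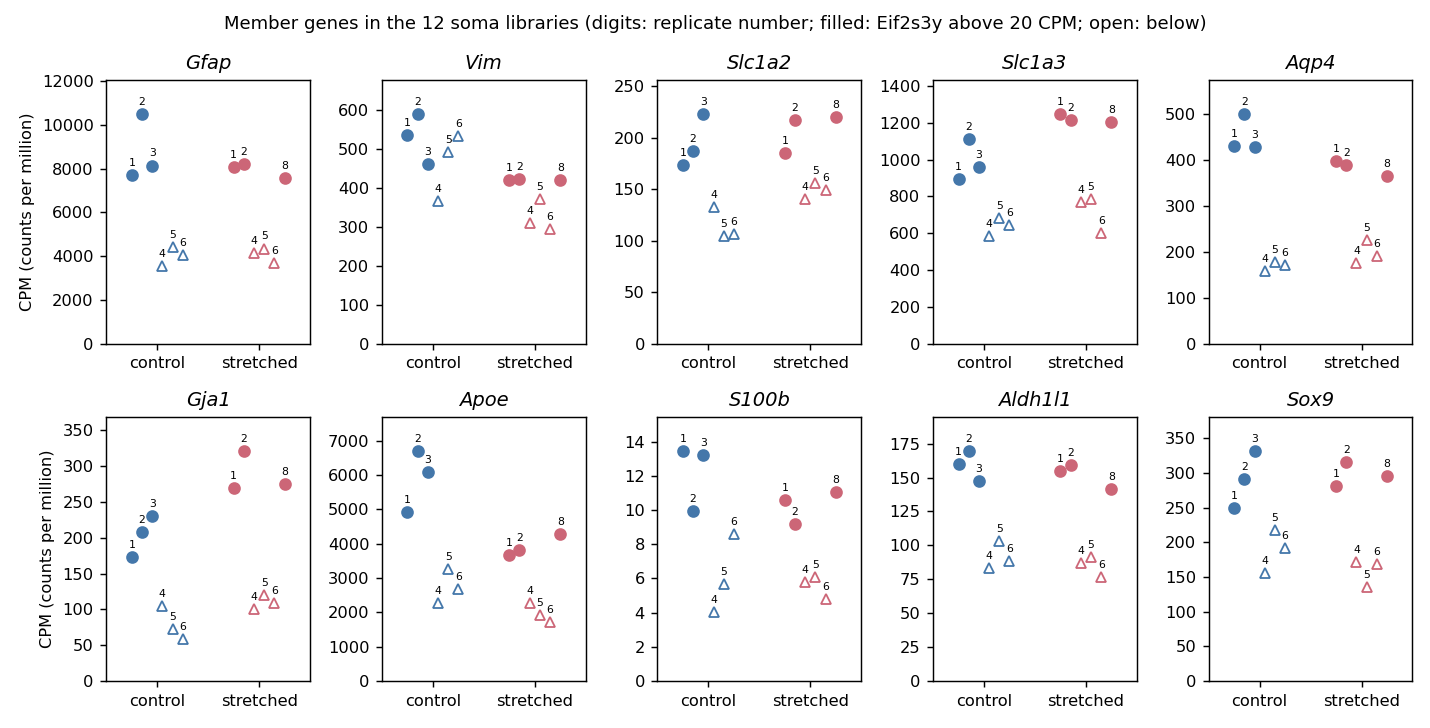
Level of each of the 10 members in CPM (vertical axes, linear, from 0) in the 6 control soma and 6 stretched soma libraries, 1 point per library with its replicate number; filled circles are the libraries above 20 CPM of Eif2s3y and open triangles those below. For every member but Vim all filled points lie above all open ones, while control and stretched points overlap in each panel.

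For 9 of the 10 members, all but Vim, the 6 soma libraries with high Eif2s3y were all above the 6 others, as were 3.3% of all 15632 genes tested. Control and stretched libraries were separated in this way by 0 of the 10. Gfap was at 7701, 10496 and 8145 CPM in control soma 1, 2 and 3, and at 3546, 4436 and 4067 CPM in control soma 4, 5 and 6. In stretched soma it was at 8094, 8206 and 7556 CPM in numbers 1, 2 and 8, and at 4127, 4348 and 3705 CPM in numbers 4, 5 and 6. No library of one set reached into the range of the other, in either condition.

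Gja1 had the largest ratio of mean levels between the sets among the members. It was at 173, 208 and 230.5 CPM in control soma 1, 2 and 3 against 105, 72.9 and 58.0 CPM in numbers 4, 5 and 6. Stretched soma 1, 2 and 8 were at 269, 320.5 and 275 CPM, against 101, 120.5 and 108.5 CPM in numbers 4, 5 and 6. With both conditions together the mean level in the set with high Eif2s3y was 2.61 times that in the other set, on the TMM scale.

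The same ratio was 2.28 for Aqp4, 2.07 for Apoe, 2.07 for Gfap, 1.92 for S100b, 1.76 for Aldh1l1, 1.69 for Sox9, 1.63 for Slc1a3 and 1.53 for Slc1a2. Vim was the exception, with a ratio of 1.20 and overlapping ranges of 417 to 589 and 294 to 549 TMM-scaled CPM. Within each condition alone the ratios were similar, for example 2.16 in control and 1.97 in stretched for Gfap, and 2.65 and 1.96 for Aqp4.

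Of the 30 further astrocyte genes on the list of this report, 16 had all 6 libraries of the set with high Eif2s3y above all 6 of the other and 0 had all 6 below, with a median ratio of 1.73. Among these were Ednrb (2.87), an endothelin receptor, and Glul (1.76), glutamine synthetase. Nfia (0.742) and Nfib (0.814), transcription factors of glial development that neurons also make, had ratios under 1 with overlapping ranges. The members' median ratio was 1.84, and that over all genes tested was 1.00. Of the 8 neuronal genes, among them Tubb3, Snap25 and Map2, 0 separated the sets in either direction and their median ratio was 1.00. Over all genes tested, 1.75% had all 6 libraries of the set with high Eif2s3y below all 6 of the other. In such bulk libraries fewer astrocytes and less of these RNAs per astrocyte cannot be told apart.

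**Figure D2:**
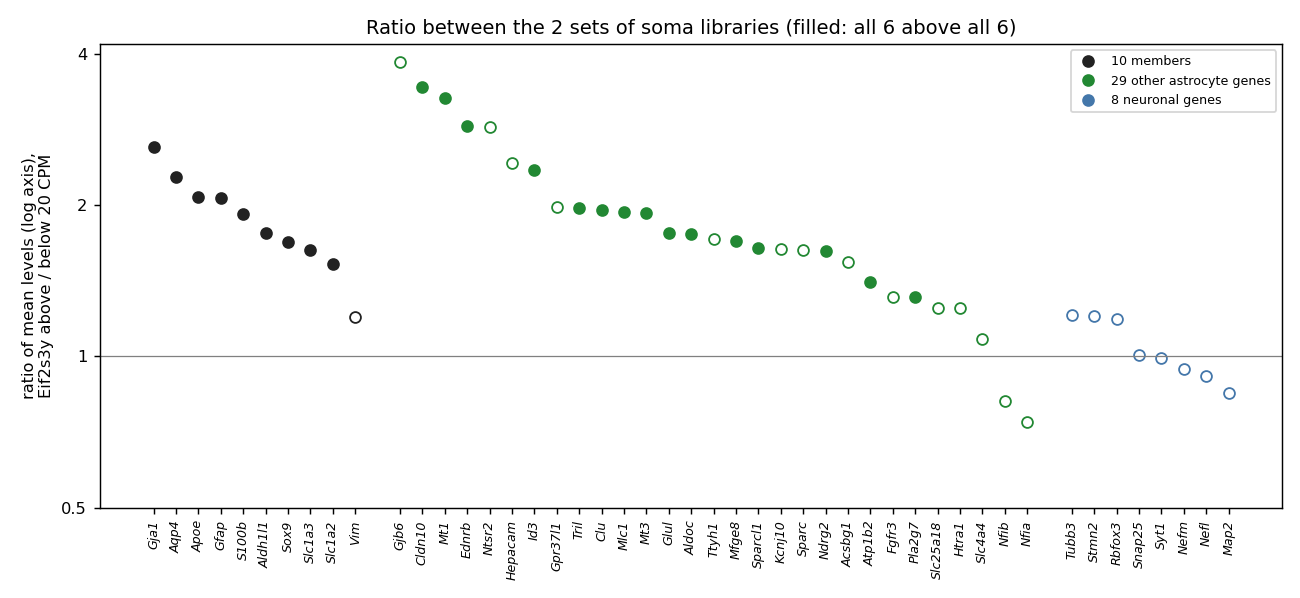
Ratio of the mean TMM-scaled level in the 6 soma libraries above 20 CPM of Eif2s3y to that in the 6 below (vertical axis, log scale; the line marks a ratio of 1) for the 10 members, 29 of the 30 further astrocyte genes and 8 neuronal genes; filled points have all 6 libraries above all 6. Of the members 9 are filled, from 1.53 to 2.61, of the further astrocyte genes drawn 15 are filled, and of the neuronal genes 0.

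From the lowest to the highest of all 12 soma libraries Gfap spanned 3.00-fold, Gja1 5.38-fold and Apoe 3.89-fold in CPM. Inside the set with high Eif2s3y the same spans were 1.40, 1.84 and 1.82, and inside the other set 1.29, 1.99 and 1.92. Vim spanned 2.01-fold over all 12 and still 1.87-fold inside the set with low Eif2s3y, and S100b 3.40-fold and 2.21-fold. Since the libraries fall into clusters, correlations with Gfap were taken inside each set of 6 only. In the set with high Eif2s3y Pearson's r of the other 9 members with Gfap ran from -0.44 to 0.84 with a median of 0.097. In the other set it ran from -0.44 to 0.86 with a median of 0.559. Without the 2 libraries farthest from the median of Gfap, the largest r of the first set, that of Aqp4, turned to -0.95. The largest r of the other set, that of Aldh1l1, was then 0.95. With so few libraries the values of r can rest on 1 or 2 of them. By exact two-sided permutation tests 0 of the 18 relations passed after Benjamini-Hochberg adjustment, by r or by Spearman's rho. The smallest adjusted p was 0.404, and 1 relation had an unadjusted p below 0.05. With 720 orders of 6 libraries and 18 relations, a lone relation could hardly pass even if perfect. The lack of a pass therefore does not show that the members were unrelated.

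The genes most like the members over the 12 soma libraries were ranked by Pearson's r of their log2 level with the members' mean standardized level, among 9305 genes of at least 10 CPM. The first 6 were Sparcl1 (0.989), Cst3 (0.987), Prdx6 (0.984), Emp2 (0.980), Ndrg2 (0.980) and Ednrb (0.980). Sparcl1 is a secreted matrix protein, Cst3 a secreted protease inhibitor, Prdx6 a peroxidase, Emp2 a membrane protein, Ndrg2 a cytoplasmic protein and Ednrb the endothelin receptor already named. Sparcl1 was at 709 CPM on average in the set with high Eif2s3y and at 432 in the other, and Prdx6 at 808 and 302, on the TMM scale. Of the 27 further astrocyte genes at that level, 13 (48.1%) had an r over 0.9, against 1.33% of all 9305. These values share the step between the sets, so they describe these 12 libraries and carry no test.

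Promoter sequence is shown for the 2 most abundant members and for 2 that separated the sets by different amounts. Whether promoter sequence has a part in the step between the sets was not tested. The 250 bases before the start of transcription were taken from the RefSeq promoter table of GRCm38.p6, which held 8 of the 10 members, and only windows free of annotated exons are given. Capitals mark matches on either strand to TTCNNNGAA (the STAT type of site), TTGGC (the half-site of NFI factors), ACAAT (the core of SOX sites) or TATAAA. The Gfap window is chr11:102897201-102897450, the Apoe window chr7:19699189-19699438, the Gja1 window chr10:56377050-56377299 and the Slc1a3 window chr15:8710808-8711057. Gja1 is on the plus strand and the other windows are on the minus strand, and each is written 5′ to 3′ on its gene's strand.
Gfap: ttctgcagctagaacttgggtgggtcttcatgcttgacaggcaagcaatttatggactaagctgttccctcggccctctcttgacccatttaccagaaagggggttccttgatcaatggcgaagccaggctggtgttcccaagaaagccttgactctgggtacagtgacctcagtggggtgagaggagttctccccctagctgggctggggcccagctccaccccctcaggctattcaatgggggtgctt
Apoe: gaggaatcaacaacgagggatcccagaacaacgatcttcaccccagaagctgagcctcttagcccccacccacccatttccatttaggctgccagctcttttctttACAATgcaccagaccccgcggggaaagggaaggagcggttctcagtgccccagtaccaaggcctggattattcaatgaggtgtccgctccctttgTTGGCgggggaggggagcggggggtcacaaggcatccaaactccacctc
Gja1: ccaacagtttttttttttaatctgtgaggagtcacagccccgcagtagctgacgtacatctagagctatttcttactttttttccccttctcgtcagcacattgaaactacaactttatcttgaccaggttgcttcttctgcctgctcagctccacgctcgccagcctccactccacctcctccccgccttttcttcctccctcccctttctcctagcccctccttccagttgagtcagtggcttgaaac
Slc1a3: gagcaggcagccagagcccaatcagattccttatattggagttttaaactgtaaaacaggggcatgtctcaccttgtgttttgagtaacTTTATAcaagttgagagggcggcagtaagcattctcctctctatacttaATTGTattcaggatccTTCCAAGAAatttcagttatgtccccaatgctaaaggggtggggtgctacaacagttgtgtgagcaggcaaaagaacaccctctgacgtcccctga
The Gfap and Gja1 windows held no match to these letters. The Apoe window held 1 TTGGC and 1 ACAAT. It is the one that ends at the gene's annotated start; the table had a further Apoe window free of exons, chr7:19698622-19698871, with 2 matches to TATAAA. In the Slc1a3 window there was 1 TTCNNNGAA, 1 ACAAT and 1 TATAAA. Of all 32851 promoters of that length, 7.02% held TTCNNNGAA, 41.5% TTGGC, 27.7% ACAAT and 12.4% TATAAA on either strand. The full palindromic NFI site, which contains the half-site on both strands, was in 0.0365% of promoters and in none of the 4 windows. No searched motif was in all 4 windows, which were picked from the members and do not stand for all of them. S100b, which also separated the sets, had a window free of exons with 3 matches to TTGGC that is not shown.

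Stretch in the somata was compared between 6 control and 6 stretched libraries, which asks how the pull on the particles changed RNA on the side of the cell bodies. Vim fell by 0.46 on the log2 scale and was the single member of 10 to pass over the 12 libraries, where 25.1% of all genes tested passed; Gfap, the member with the most counts, did not pass. With the set of libraries as a covariate, Apoe also fell and Gja1 rose, by similar amounts as without it. The other 7 members did not pass in either fit.

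Vim was at 366, 512 and 589 CPM (lowest, median, highest) in control soma and at 295, 396 and 422 CPM in stretched soma. Control soma 4 alone lay inside the stretched range, so the groups overlapped through 1 control library. The edgeR quasi-likelihood test gave a log2 change of -0.46 (SE 0.12, adjusted p = 0.0155). In the same fit 13.9% of the 15632 genes tested were called lower and 11.2% higher, so a count of 1 lower and 0 higher among 10 members is not above that background.

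Apoe was at 2275, 4087 and 6687 CPM in control soma and at 1727, 2965 and 4271 CPM in stretched soma. Compared inside each set, control soma 1, 2 and 3 (4922, 6687 and 6082 CPM) were all above stretched soma 1, 2 and 8 (3661, 3805 and 4271 CPM). Control soma 4, 5 and 6 (2275, 3253 and 2682 CPM) were all above stretched soma 4, 5 and 6 (2269, 1922 and 1727 CPM), with control soma 4 and stretched soma 4 nearly level. Its log2 change was -0.60 (SE 0.30, adjusted p = 0.159, edgeR) over the 12 libraries and -0.57 (SE 0.10, adjusted p = 0.00187) with the set as covariate.

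Gja1, by the values given above, was higher in stretched than in control libraries at nearly every place inside a set: all 3 stretched libraries with high Eif2s3y were above the 3 control ones, and in the other set 2 of 3 were. Its log2 change was 0.45 (SE 0.39, adjusted p = 0.421, edgeR) over the 12 libraries and 0.45 (SE 0.12, adjusted p = 0.00841) with the covariate. In the covariate fit 17.9% of all genes tested were called lower, 16% higher and 33.9% in all, beside 2 members lower (Vim and Apoe) and 1 higher (Gja1). This fit was added after seeing the data.

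The glutamate transporters had positive log2 changes that did not pass. Slc1a3 was at 586, 787 and 1114 CPM in control soma and at 599.7, 995 and 1246 CPM in stretched soma, a change of 0.21 (SE 0.20, adjusted p = 0.473, edgeR) and of 0.20 (adjusted p = 0.0716) with the covariate. Slc1a2 was at 105, 153 and 223 CPM and at 141, 171 and 220.2 CPM, a change of 0.16 (SE 0.18, adjusted p = 0.54) and of 0.19 (adjusted p = 0.0982) with it. For both the groups overlapped almost wholly.

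Gfap had a log2 change of -0.14 (SE 0.30, adjusted p = 0.763, edgeR), Aqp4 of -0.14 (SE 0.34), S100b of -0.26 (SE 0.29), Aldh1l1 of -0.13 (SE 0.23) and Sox9 of -0.11 (SE 0.23). With the covariate the SE of Gfap was smaller, 0.089, and its change of -0.11 did not pass either. The signs of Gfap, Aqp4 and Sox9 were not stable over the alternatives tried. The 10 members had a median log2 change of -0.13, beside -0.028 for all genes tested, and 0 of 10 had groups that did not overlap, beside 4.04% of all genes.

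**Figure D3:**
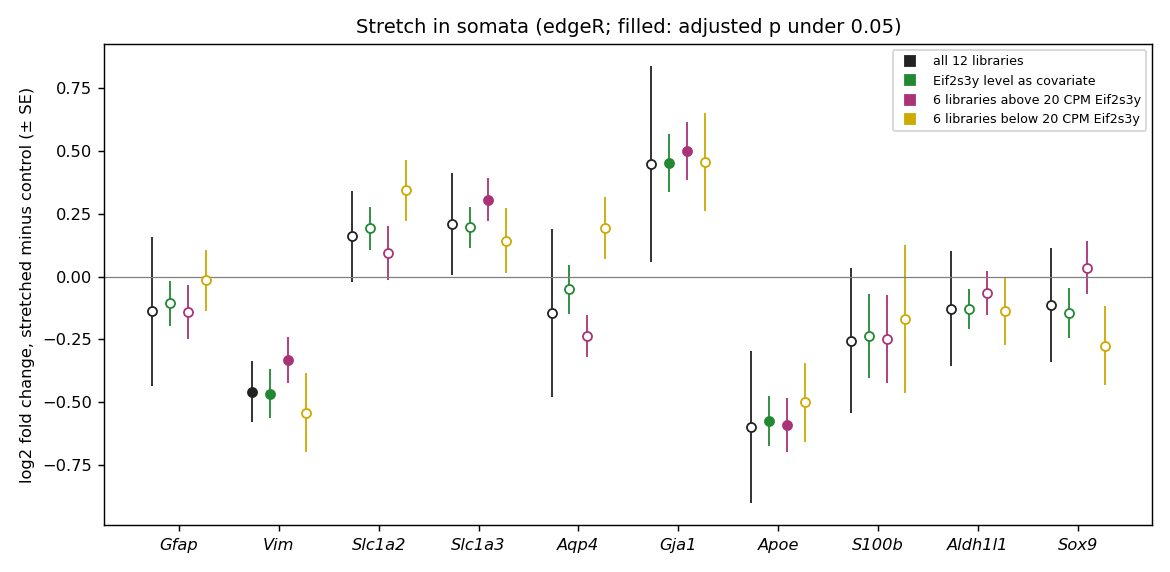
Log2 fold change of each member between stretched and control soma (vertical axis, stretched minus control, bars ± SE, edgeR) over all 12 libraries, with the Eif2s3y level as covariate, and in the 6 libraries above or the 6 below 20 CPM of Eif2s3y; filled points have an adjusted p under 0.05. Vim is filled in the first 3 fits, Apoe and Gja1 in the covariate fit and the 6 libraries above, Slc1a3 in the latter only, and none in the 6 libraries below.

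Of 15867 genes tested inside the 6 libraries with high Eif2s3y alone, 4637 passed in edgeR, 2623 higher and 2014 lower. The members that passed in those 6 libraries were Apoe (-0.59, adjusted p = 0.00482), Vim (-0.33, adjusted p = 0.0237), Gja1 (0.50, adjusted p = 0.0114) and Slc1a3 (0.31, adjusted p = 0.0248). In the 6 others the changes of Apoe (-0.50), Vim (-0.54) and Gja1 (0.46) were of like size, each with an SE of 0.16 to 0.20, and 0 genes of any kind passed there, with 2739 at an unadjusted p below 0.05. The difference between the sets in the effect of stretch was tested as an interaction: 0 of 15632 genes passed (1169 at an unadjusted p below 0.05), and the lowest p among members was that of Aqp4 (0.00647, adjusted p = 0.628). Without control soma 4 the count of genes called rose from 3929 to 6072, and Vim was still the one member called.

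Of the 29 further astrocyte genes tested, 2 rose and 3 fell in somata under stretch, beside 11.2% and 13.9% of all genes tested, so neither count is above that background. Their median log2 change was -0.24. Nfia (0.67, SE 0.18, adjusted p = 0.0181, edgeR) and Nfib (0.39, SE 0.11, adjusted p = 0.0219) rose. Htra1 (-1.43), a secreted protease, Sparc (-0.86), a matrix glycoprotein, and Slc25a18 (-0.55), a mitochondrial glutamate carrier, fell. With the covariate 4 rose and 11 fell, beside 16% and 17.9% of all genes tested, so the share that fell was above that background; Fgfr3 (0.54), a growth factor receptor, was then among the risen and Ntsr2 (-1.34), a neurotensin receptor, among the fallen.

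Other lists had called genes in these libraries too, beside 13.9% of all genes tested called lower and 11.2% higher. Of the 8 neuronal genes, all detected, 4 were lower and 1 higher, and their sums were 5699.5 to 6827 CPM in control soma and 5417 to 6112 CPM in stretched soma. The 8 microglial genes summed to 43.7 to 92.2 CPM in control soma and 31.0 to 40.8 CPM in stretched soma, with all 8 detected in both groups, 3 lower, 0 higher and no overlap of the sums. The 8 genes of radial glia and progenitors summed to 841 to 1699 and 710.2 to 1264 CPM, with all 8 detected, 2 lower and 1 higher. Most of these sums was Fabp7, at means of 1207.5 and 922 CPM, beside 1341 and 1035.5 CPM for the sum. Of the fibroblast and mural genes 1 was lower and 1 higher, and of the oligodendrocyte lineage genes 0 were lower and 1 higher. Among endothelial genes and among ependymal and choroid genes 0 were called. Transcript length also went with the change: across 15619 genes the Spearman correlation of the longest transcript with the log2 change was 0.457, with medians of -0.32 below 2000 bases and 0.21 above 4000 bases. Genes are not independent replicates and all points share the same 12 libraries. Among the members it was 0.60 (n = 10). Among the 29 further astrocyte genes tested it was 0.79, and 0.78 with the covariate. Apoe, with 1408 bases, is the shortest member, and Gja1 has 3889. The part of neurons, of microglia, of progenitors or of transcript length in the changes of Vim, Apoe and Gja1 was not tested. Nor was their part tested for the further astrocyte genes.

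The axonal libraries held astrocyte marker RNA throughout, although they are labelled pure axonal. Gfap had counts in all 11, at 20079, 20253, 15093, 3144 and 5007 CPM in control axon 1, 2, 3, 5 and 7. In stretched axon 1, 2, 4, 5, 6 and 8 it was at 18137, 5238, 2867, 9879, 4899 and 5254 CPM. No axonal library was below 2867 CPM, against a lowest soma value of 3546 CPM. The 10 members together made up 1.64% ± 0.881 of counts in control axon (SD, n = 5) and 1.23% ± 0.639 in stretched axon (SD, n = 6). These shares overlapped with those in somata.

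Vim and Apoe were the other members found in all 11 axonal libraries. Vim was at 1334, 1271, 245, 968 and 1103 CPM in control axon and at 1377, 1715, 451.5, 1301, 337 and 1521 CPM in stretched axon. Apoe was at 850.2, 1252, 3356, 1533 and 214 CPM in control axon and at 2598, 1277, 2422, 1107, 653 and 2924 CPM in stretched axon. Both varied several-fold between libraries of one group, and the conditions overlapped. Per kilobase of the longest transcript Gfap was highest in control axon at 4802 ± 3090 CPM, ahead of Apoe at 1023 ± 838, Vim at 336 ± 150 and Slc1a3 at 162 ± 54.7 (SD, n = 5). Each of these overlapped its neighbour, and Sox9 at 32.8 ± 33.4 CPM per kilobase was the next, below the range of Slc1a3. In stretched axon Gfap at 2913 ± 2116, Apoe at 1300 ± 662 and Vim at 382 ± 198 CPM per kilobase (SD, n = 6) led again, and every member's range overlapped that of its neighbour.

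The transporters, Gja1 and Sox9 were present in some axonal libraries at soma-like levels and missing or nearly so in others. Slc1a3 was at 434 to 944.5 CPM in the 5 control axon libraries, but at 2.59, 0, 490.1, 1667, 145 and 1349 CPM in stretched axon. Sox9 was at 23.3 to 367 CPM in control axon, and in stretched axon at 0 in number 2, at 1092 in number 1 and at 180 to 249.5 CPM in the other 4. Slc1a2 was at 0.167, 0.0998, 625, 86.7 and 19.9 CPM in control axon and at 480.1, 0, 0.876, 184, 32.4 and 0.202 CPM in stretched axon. Gja1 had counts in 8 of 11 libraries, at 173, 0, 319, 86.6 and 0 CPM in control axon and at 0, 1431, 289, 87.1, 129 and 771.5 CPM in stretched axon. Stretched axon 2 had no count of Slc1a2, Slc1a3 or Sox9 and yet the highest Gja1 of all 23 libraries.

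Aldh1l1, Aqp4 and S100b were the members most often without a count. Aldh1l1 had counts in 7 of 11 axonal libraries, up to 367 CPM in control axon 7. Aqp4 had counts in 4 of 5 control axon libraries, at 15.6 to 68.6 CPM, and in 1 of 6 stretched ones, at 208 CPM. S100b, the lowest member in somata, had counts in 4 of 11, up to 45.8 CPM in stretched axon 1. A count of 0 allows up to 0.183 CPM in the shallowest library, far below the soma level of each of these genes.

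In all, 42 of 50 pairs of member and library (84%) had a count in control axon and 45 of 60 (75%) in stretched axon, against 60 of 60 in each soma group. With at least 3 counts required, the axonal total went from 87 to 85 of 110, and after thinning every library to 16369153 counts it was 86. The 9 members with a soma mean of at least 100 CPM were detected in 83.8% of pairs, beside 76.4% for all 2367 genes at that level. Gfap and Apoe were above 1000 CPM in somata, where 92.0% of 88 genes had a count in all 11 axonal libraries. The members' detection was near that of other genes of like soma level.

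**Figure D4:**
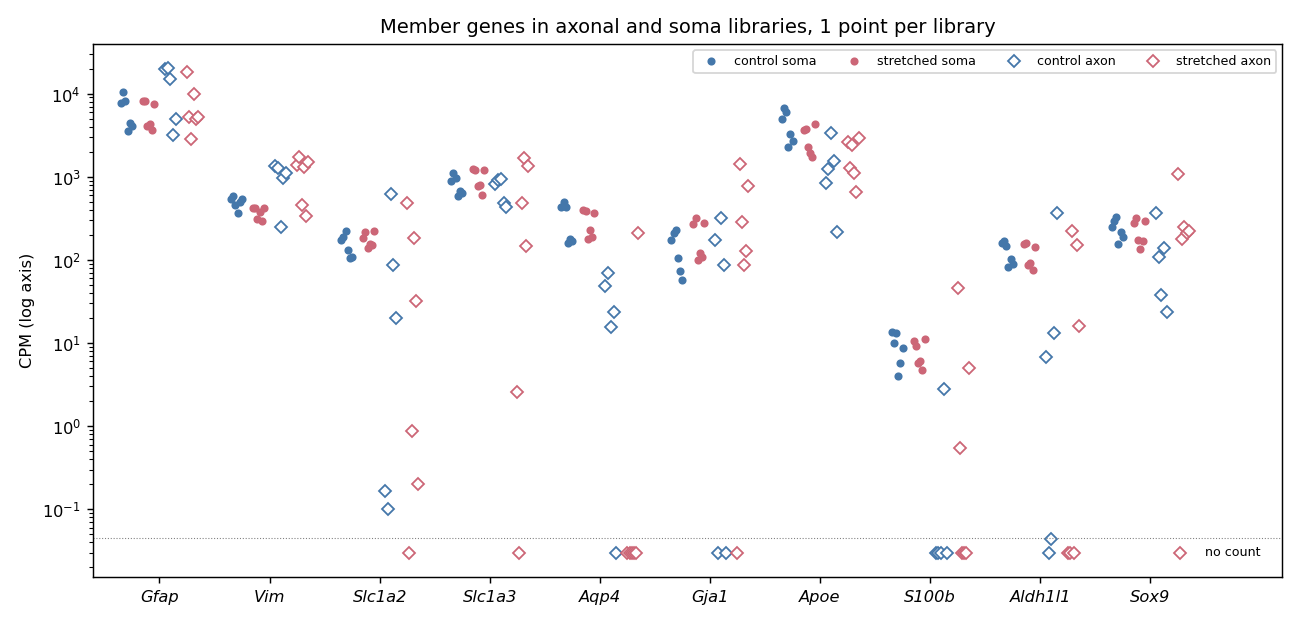
Level of each member in CPM (vertical axis, log scale) in all 23 libraries, 1 point per library. Points under the dotted line have no count, except Aldh1l1 in control axon 3, with 1 count (0.0441 CPM). Filled circles are soma and open diamonds axonal libraries. Gfap, Vim and Apoe are at 214 CPM or more in all 11 axonal libraries, while the other 7 members spread from no count to soma-like levels.

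Markers of other cells in the axonal libraries are given beside these values. The 8 neuronal genes summed to 5417 to 6827 CPM in somata and to 1283 to 4385 CPM in axonal libraries. The members' sum was a median of 1.97 times the neuronal sum in control soma, 1.96 times in stretched soma, 5.34 times in control axon and 3.92 times in stretched axon, and at most 18.5 times. Gfap alone was a median of 73.1% of the members' sum in control axon (48.5% to 84.9%) and 61.2% in stretched axon (41.4% to 76.4%). These medians were above those in somata, but the ranges overlapped. The soma ranges were 46.5% to 51.8% in control and 50.6% to 55.0% in stretched cultures. The 30 further astrocyte genes summed to 4954 to 12198 CPM in axonal libraries, and Gjb6 and Cldn10 had no count in any of the 11. The 8 genes of radial glia and progenitors summed to 732 to 4066 CPM with Sox2 at 0 in all 11. Most of that sum was 1 gene, Fabp7, at means of 2394 CPM in control axon and 2246 CPM in stretched axon. The means of the sum were 2537 and 2364 CPM, and in control axon 7 Fabp7 was the 1 gene of the list with a count. The 8 genes of fibroblasts and mural cells summed to 162 to 3408 CPM with none at 0 throughout.

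The other lists were patchy. The 8 microglial genes summed to 0 to 245 CPM, with P2ry12 and Trem2 at 0 in all 11 axonal libraries. Oligodendrocyte lineage genes summed to 0 to 438 CPM, with Olig2, Sox10 and Cspg4 at 0, endothelial genes to 0 to 107 CPM, with Cldn5, Cdh5, Kdr and Tek at 0, and ependymal and choroid genes to 0 to 736 CPM, with Tmem212 at 0. Sox10 was also at 0 in every soma library. Which cells or compartments gave the members' RNA in the axonal libraries was not tested.

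**Figure D5:**
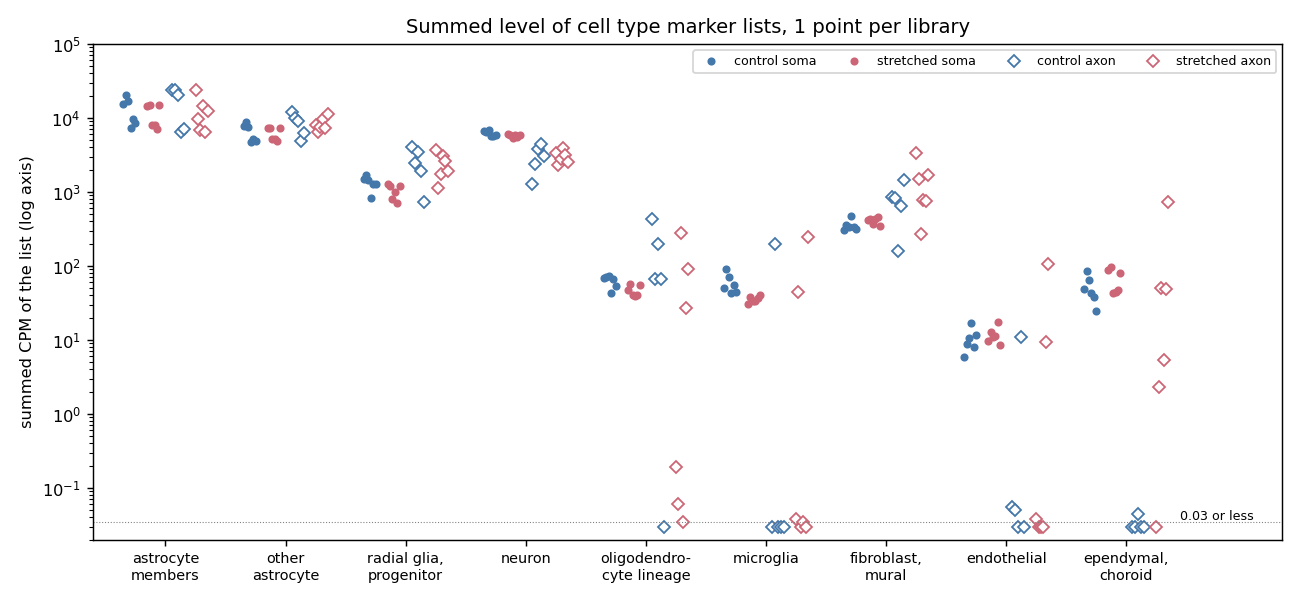
Summed CPM of 9 lists of cell type markers in every library (vertical axis, log scale; sums of 0.03 or less are drawn under the dotted line); filled circles are soma and open diamonds axonal libraries. The 10 members sum to 6479.5 to 23862 CPM in axonal libraries, overlapping the soma range of 7022 to 20252, while the neuronal list is below its soma range in all 11.

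Axonal and soma libraries were compared within each condition, which asks whether the members' RNA differs between the compartments. Apoe fell in axons in both conditions and was the 1 member of 10 that passed, where 35.3% and 29.3% of all genes tested passed in control and stretched cultures. Gfap, Vim and Slc1a3 did not pass, which does not show that they were level between the compartments. The median gene tested was lower in axons. The scaling matters here: the median log2 change of all genes tested was -1.40 in control and -1.13 in stretched cultures with TMM, and -1.27 and -0.73 with total counts alone. The members' medians were -0.73 and -0.83 with TMM.

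In control cultures Apoe fell by 1.80 on the log2 scale in axons (SE 0.61, adjusted p = 0.0391, edgeR), with means of 4693 and 1350 TMM-scaled CPM. By total counts its levels were 4317 ± 1848 CPM in somata (SD, n = 6) and 1441 ± 1180 in axons (SD, n = 5). In stretched cultures it fell by 1.17 (SE 0.39, adjusted p = 0.0417), which is on the TMM scale, with means of 3501 and 1553 TMM-scaled CPM. By total counts the levels were 2942 ± 1095 and 1830 ± 933 CPM (SD, n = 6 each), a smaller difference. The compartments overlapped in both conditions. Of all genes tested 34.4% were called lower and 0.856% higher in control cultures, and 28.4% and 0.843% in stretched ones. The 1 of 10 members lower is under these shares, which were not matched to the members' soma level.

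The Apoe calls were near the threshold. With total counts as scaling the log2 change was -1.58 (adjusted p = 0.0579) under control and -0.68 (adjusted p = 0.289) under stretched conditions. Besides leaving out libraries, the control call was lost in 3 of 6 other settings: total counts, limma voom (adjusted p = 0.187) and the replicate block (adjusted p = 0.0587, edgeR). The stretched call was lost in 4 of 6: total counts, RLE size factors (adjusted p = 0.0532), no filter on low counts (adjusted p = 0.103) and limma voom (adjusted p = 0.327). The control call was also lost, with adjusted p between 0.0543 and 0.0877 (edgeR), without control axon 1 or 2 or without control soma 1, 2, 3 or 5. In stretched cultures it was also lost, with adjusted p between 0.0547 and 0.115, without stretched axon 1, 2, 5 or 6 or without stretched soma 1, 2 or 8.

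The filament genes had other values. The log2 change of Gfap in axons was 0.67 (SE 0.47, adjusted p = 0.41, edgeR) in control cultures and -0.20 (SE 0.39, adjusted p = 0.90) in stretched ones, and the latter turned to 0.36 with total counts. Vim was at 0.70 (SE 0.35, adjusted p = 0.179) and 1.09 (SE 0.38, adjusted p = 0.0549). Vim passed in stretched cultures with RLE size factors (1.23, adjusted p = 0.0296) and with total counts (1.59, adjusted p = 0.00626), and without stretched axon 4 or 6 (adjusted p = 0.0138 and 0.00771). In control cultures it passed without control axon 3 (0.94, adjusted p = 0.000776), the library in which it was at 245 CPM.

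Slc1a3 was at 813 ± 208 CPM in control soma (SD, n = 6) and 718 ± 243 in control axon (SD, n = 5), a log2 change of -0.46 (SE 0.26, adjusted p = 0.27, edgeR). Sox9 was at 239 ± 64.8 and 136 ± 138 CPM, a change of -1.11 (SE 0.66, adjusted p = 0.295), and passed only without control axon 1 (-1.82, adjusted p = 0.0316). Aqp4 and S100b were the members whose groups did not overlap, both in control cultures and both lower in axons, with adjusted p of 0.0562 and 0.139; 42.3% of all genes had groups without overlap there. In stretched cultures 0 of 10 members had this, beside 38% of all genes. Fitted folds of members with empty libraries rest on the prior count and are not given.

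Of 29 further astrocyte genes tested in control cultures, 1 was higher in axons (Nfib, 1.13, adjusted p = 0.00527, edgeR) and 3 were lower, beside 0.856% higher and 34.4% lower of all genes tested. These were Atp1b2 (-0.93, adjusted p = 0.0271), a subunit of the sodium pump, and Ntsr2 and Cldn10, which had no axonal count in that group and at most 6.77 and 7.93 CPM in control soma. In stretched cultures 1 of 29 was higher (Sparc, 2.29, adjusted p = 0.00022) and 3 were lower, beside 0.843% and 28.4% of all genes tested: Gpr37l1 and Cldn10, without a count in stretched axon, and Fgfr3, with a count in 1 of 6 libraries. Sparc was at 202 ± 44.3 CPM in stretched soma and 1394 ± 724 in stretched axon (SD, n = 6 each), and the groups did not overlap. The control comparison and the stretched comparison share no library, and the difference between them was not tested.

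Stretch in the axons was compared between 5 control and 6 stretched libraries, and 0 members passed. A p that misses the threshold here does not show that a member did not change. Of 4947 genes tested with edgeR 0 were called (0%), 46 had an unadjusted p below 0.05, DESeq2 called 18 and limma voom 9. S100b did not pass the filter on low counts, and the other 9 members each had an adjusted p of 0.9998. Log2 changes are given for the members with at least 3 counts in every library. Gfap was at -0.73 (SE 0.50), with 12715 ± 8181 CPM in control (SD, n = 5) and 7712 ± 5602 in stretched axon (SD, n = 6). Vim was at 0.15 (SE 0.49) and Apoe at 0.31 (SE 0.55).

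The groups of all 9 members tested overlapped, and 0.283% of all genes tested had groups without overlap. The axonal libraries of one condition differed by more than the conditions did for each of Gfap, Vim and Apoe.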

How the data were processed

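Libraries were made with a low-input poly(A) kit and sequenced as read pairs, per the labels' protocols. The 23 deposited tables hold whole-number read counts by Ensembl gene ID; per the submitters' processing notes they used fastp 0.20.1, STAR 2.7.08a, HTSeq 0.13.5 and mm10. Use of the molecular identifiers and of strand in counting is not given in the sources used here. Of the reads 14.2% to 24.4% were not counted in genes (5.43% to 13.4% aligned to several places), and these rows stayed out of all totals. Symbols matched 55141 of 55487 IDs. Positions and lengths came from GENCODE M21.

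Each comparison was fitted on its own 2 groups over all genes with edgeR 4.0.16 (filterByExpr, TMM, robust quasi-likelihood test, Benjamini-Hochberg adjusted p under 0.05) in R 4.3.3. On simulated counts these fits found most planted changes of 2-fold and 4-fold in somata. They found almost none in the comparisons with axonal libraries. Between compartments the simulated counts had the same spread in soma as in axonal libraries, unlike the data. The real fits there called 35.3% and 29.3% of genes in control and stretched cultures. The simulated counts therefore do not measure what those 2 fits can find. A missed threshold in any comparison with axonal libraries still does not show that a gene was unchanged. The SE is the log2 change over the square root of F. DESeq2 1.42.0 and limma 3.58.1 (voom with quality weights) were alternatives, beside scaling, filter, replicate number as a block, leaving out each library, and the Eif2s3y level. Detection was repeated at 3 counts and after thinning. Members, lists and tests were chosen with earlier results of these data known. All 10 members are named. Further astrocyte genes are named for the 3 highest and 3 lowest called changes with a mean of at least 1 CPM, and those in the paragraph on the 2 sets of soma libraries were chosen after their values were seen. Genes like the members are the first 6 by Pearson's r with a mean of at least 10 CPM. A further astrocyte gene is not reported here by itself.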

Additional observations from a re-analysis of the deposited data

Results flagged for a closer look

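In 6 of the 40 combinations of member and group, 1 library lay far from the others of its group (the gap to its nearest neighbour over the group's range was above the critical value of Dixon's test; chance gives about 1 in 20 groups, a rate that does not hold where most libraries are at 0, since a single library with counts is then always far from the others). All 6 were axonal. Aqp4 was at 208 CPM in stretched axon 8 and at 0 in the 5 others. S100b was at 2.79 CPM in control axon 5 with 0 in the 4 others, and at 45.8 CPM in stretched axon 1 with 0 to 5.01 in the others. Slc1a2 was at 625 CPM in control axon 3 and at 0.0998 to 86.7 elsewhere in that group. Aldh1l1 was at 367 CPM in control axon 7 and at 0 to 13.4 in the others. Sox9 was at 1092 CPM in stretched axon 1 and at 0 to 249.5 in the others. The 6 flags fall on 5 different libraries, and no soma library was flagged for any member.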

How the results depend on the processing

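The axonal groups hold 5 or 6 libraries, and 7 of the 10 members had no count in at least 1 of them. In somata 3929 genes were called; 6072 were called without control soma 4, 7000 with the Eif2s3y covariate and without that library, and 0 in the 6 libraries with low Eif2s3y. Leaving out each library gave 2666 to 6072 calls in somata, 0 in axons every time, 4542 to 8151 between compartments in control cultures (highest without control axon 5) and 4174 to 6499 in stretched cultures (highest without stretched axon 8). In axons DESeq2 called 18 genes and limma voom 9. Between compartments no filter on low counts gave 10714 and 10931 calls in control and stretched cultures, and limma voom 9912 and 10203; the cause was not tested, but without a filter more genes are tested.

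Among the members in somata, Vim kept its call in all 12 fits that left out a library (-0.55 to -0.38) and in 10 of 11 other settings. Aqp4 turned to 0.0053 with limma voom and to 0.19 in the libraries with low Eif2s3y, and Sox9 to 0.037 in those with high Eif2s3y. Leaving out a library moved Gfap from -0.27 to 0.064 and Aqp4 from -0.29 to 0.047 in somata, Vim from -0.085 to 0.35 in axons, and Gfap from -0.52 to 0.024 between compartments in stretched cultures, where total counts gave 0.36. Between compartments in control cultures DESeq2 called Vim higher and Apoe, Aqp4 and S100b lower, and limma voom S100b, Slc1a2 and Aldh1l1 lower; in stretched cultures limma voom called Aqp4, Slc1a2 and Aldh1l1 lower. The cause was not tested. The count of axonal pairs with a count was 85 to 87 under the 3 settings tried. All 12 soma libraries were above 1 CPM of Eif2s3y, so the 3 alternatives at that limit could not be run, and the limit of 20 CPM was chosen after seeing the data.

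Whether replicate numbers pair the samples was not settled. Same-numbered soma libraries had r of 0.0028 to 0.397 (4 of 5 over 0.1), with a median of 0.285 beside -0.0070 for different numbers. Each same-numbered soma pair lay inside a single set by Eif2s3y, while the different numbers mixed pairs inside and across the sets. Inside a set, different numbers had r of -0.0943 to 0.487, so these medians do not separate pairing from the sets. Each same-numbered pair in the other comparisons was below 0.1. Between compartments in control cultures the median was 0.067 for the same number and -0.031 for different numbers. With the replicate number as a block 3227 genes were called in somata, 0 in axons, 5051 between compartments in control and 7687 in stretched cultures. Under the block Apoe (-0.58, adjusted p = 0.0171) and Gja1 (0.52, adjusted p = 0.0214) were called in somata beside Vim, and Apoe was not called between compartments in control cultures (adjusted p = 0.0587, edgeR), while in stretched ones Aqp4 was called lower (adjusted p = 0.00275) beside Apoe. In somata 2 of 5 numbers correlated best with their own partner, in axons 1 of 3, and between compartments 3 of 4 and 3 of 6.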
